A study of Mus musculus with 9 samples.

Results

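The cells described here were 376 trigeminal neurons that carried at least 5 UMIs of Calca, the precursor of the neuropeptide CGRP, together with genes of a list led by Trpa1, Mfap5 and Gpr83. They were chosen by the values of these genes, out of 6997 cell barcodes. A barcode counted as a neuron when it showed 500 to 7500 genes, at least 1 transcript (UMI) of 3 or more of Tubb3, Scn9a, Snap25, Nefl, Nefm and Uchl1, and none of Epcam. This left 3855 neurons, of which 1610 had 5 or more UMIs of Calca. Members had at least 2 genes of the first list (Mfap5, Gpr83, Lpar1, Trpa1, Fgg, Tspan15 and Stk32a) with a UMI, and more genes of it than of the second list (Cyp1b1, Kit, Dcn, Kcnk3, Ccl21a, Aldh1a3 and Cartpt). They made up 9.75% of the neurons (95% interval 8.83% to 10.7%) and 23.4% (21.3% to 25.5%) of those with 5 or more Calca UMIs.

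The study profiled cells dissociated from the trigeminal ganglia of FVB/N wild-type mice, 3 to 6 weeks old by the labels, in 9 samples prepared by Drop-seq. By the study's methods each Drop-seq run pooled ganglia from many mice of both sexes, and no treatment was given in the labels. Barcodes carried no mark of the sample, so the cells formed a single pool in which groups of cells could not be tested against each other. A level is the gene's count per 1000000 UMIs summed over the group's cells (CPM), with exact Poisson 95% intervals, shares of cells carry exact binomial (Clopper-Pearson) 95% intervals, and log2 ratios of CPM carry exact conditional binomial 95% intervals. All of these cover counting error only, not the spread between mice or samples. The reads mark transcript ends rather than whole transcripts, so levels were compared between groups of cells for 1 gene at a time, not between genes.

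CGRP nociceptors are sensory neurons with thin, slow-conducting fibres that release CGRP and substance P from their endings and take part in pain and neurogenic inflammation. TRPA1 is a cation channel opened by pungent and reactive chemicals, and in sensory ganglia it is often found beside TRPV1, the receptor for heat and capsaicin. The trigeminal ganglion holds such neurons for the face, the mouth, the cornea and the meninges.

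The other genes of the first list belong to several kinds of protein. Gpr83 encodes an orphan-type receptor coupled to G proteins, Lpar1 a receptor for lysophosphatidic acid, and Mfap5 a glycoprotein of extracellular microfibrils. Fgg encodes the gamma chain of fibrinogen, Tspan15 a tetraspanin and Stk32a a serine/threonine kinase. In the mouse assembly GRCm38, Trpa1 lies at chr1:14872648-14918862 on the minus strand, Mfap5 at chr6:122505845-122529290 on the plus strand, Gpr83 at chr9:14860210-14870789 on the plus strand and Lpar1 at chr4:58435255-58553898 on the minus strand. Fgg lies at chr3:83007724-83015049 on the plus strand and Tspan15 at chr10:62185396-62231251 on the minus strand.

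Promoters, 250 bases before to 50 after a start of transcription, were looked up in RefSeq's annotation of GRCm38.p6, which held 6 promoters of 4 of the 7 genes. The sequences of Gpr83 and Fgg are shown because these genes, with Mfap5, differed most in level from the Cyp1b1/Kit-list neurons described below. Capitals mark a match to one of 4 motifs searched on both strands: AGGTCA, to which Nr2f2 and other nuclear receptors bind, TGTGGT of Runx factors, TGANTCA of AP-1 and the TATA box TATAAA. Both sequences are written 5′ to 3′ on the plus strand, at chr9:14859960-14860259 for Gpr83 and chr3:83007474-83007773 for Fgg.
Gpr83: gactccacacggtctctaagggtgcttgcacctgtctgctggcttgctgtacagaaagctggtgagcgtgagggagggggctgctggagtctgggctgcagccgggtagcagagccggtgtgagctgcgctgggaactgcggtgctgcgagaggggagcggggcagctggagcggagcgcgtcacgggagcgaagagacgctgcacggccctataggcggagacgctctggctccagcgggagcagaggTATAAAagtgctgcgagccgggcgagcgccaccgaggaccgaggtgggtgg
Fgg: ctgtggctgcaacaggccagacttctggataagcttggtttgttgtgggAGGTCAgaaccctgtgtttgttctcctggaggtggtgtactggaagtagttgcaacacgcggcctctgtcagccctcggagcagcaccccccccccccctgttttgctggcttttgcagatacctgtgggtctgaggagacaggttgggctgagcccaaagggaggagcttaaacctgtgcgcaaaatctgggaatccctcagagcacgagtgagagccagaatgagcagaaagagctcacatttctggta
The Gpr83 promoter held TATAAA from base 250 and the Fgg promoter held AGGTCA from base 50. Among all 32851 promoters, 16.3% held AGGTCA, 16.8% TGTGGT, 7.81% TGANTCA and 13.6% TATAAA. A match is a description of letters and not a site of binding.

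The members had a median of 4856 UMIs (range 1006 to 50737), against 2870 in the 3479 other neurons. The median was 3238 in 762 neurons chosen by the mirrored rule, called Cyp1b1/Kit-list neurons. These had at least 2 genes of the second list and more of it than of the first. A UMI of Dcdc2a, which marks another class of neuron, was seen in 20.7% of them, so they were not 1 uniform class. The median share of mitochondrial UMIs in a member was 0.867%. The table repeated 6 barcode sequences, and 3 of the barcodes concerned were members.

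Of the members, 101 had exactly 2 genes of the first list, 106 had 3, 77 had 4, 52 had 5, 28 had 6 and 12 had all 7. No gene of the second list was seen in 144 members and 1 gene of it in 134. Just inside the rule lay 83 members whose first list led by 1 gene and 8 members with exactly 5 Calca UMIs. Just outside lay 72 neurons with 1 gene of the first list and none of the second, 61 neurons in which the lists tied, and 4 neurons that failed by a single Calca UMI. Cells thus lay close to the limits on both sides. Whether they form a continuous range or separate classes was not tested.

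Of the markers in the label's list, Trpa1, Mfap5, Gpr83 and Lpar1 belong to the rule, so their presence in the members was fixed by the choice of cells. Tac1, the precursor of substance P, took no part in the rule and was seen in 97.1% of the members at 5359 CPM. In the Cyp1b1/Kit-list neurons the share was 94.9% and the level 5168 CPM. The median of Tac1 per cell was 8422 CPM in the members and 5990 CPM in the Cyp1b1/Kit-list neurons. Mrgpra3, a receptor of itch-sensing neurons, was seen in 9 members, 8 of them with 2 or more UMIs, and stood at 42.4 CPM over all members against 2.19 CPM in the Cyp1b1/Kit-list neurons. Fam150b was seen in 14.9% of the members and 8.40% of the Cyp1b1/Kit-list neurons. Against the label stood 66 members (17.6%, interval 13.8% to 21.8%) with a UMI of Mrgprd, the receptor that marks a class of non-peptidergic neurons, 54 of them with 2 or more. They held 37.2% of all UMIs of the members.

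**Figure D1:**
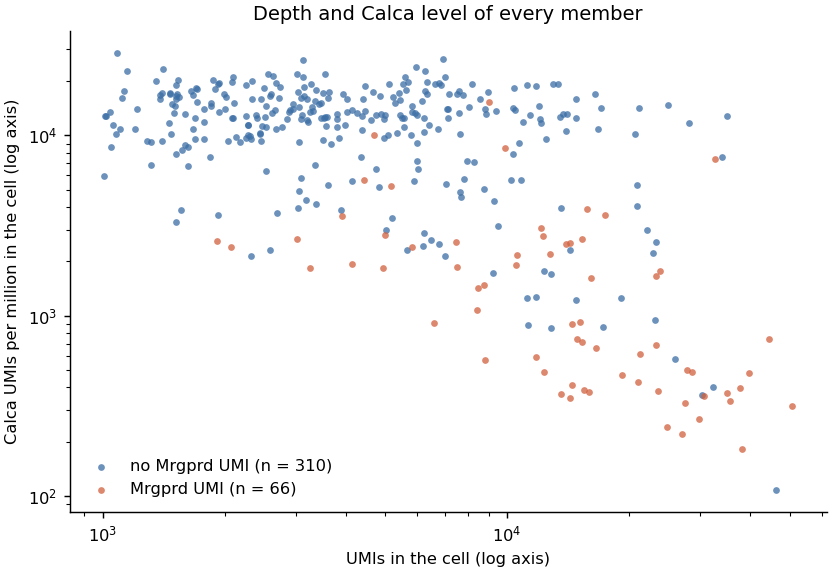
Each point is 1 of the 376 members, with its total UMIs on the horizontal log axis and its Calca CPM on the vertical log axis. The 66 members with a Mrgprd UMI mostly lie to the lower right, with a median of 14485.5 UMIs and 997 Calca CPM, and the 310 without mostly lie in a band at a median of 12832 Calca CPM.

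As the plot of depth and Calca shows, the members with Mrgprd had little Calca for their depth. Calca per cell ranged from 183 to 15386 CPM with a median of 997 in the 66, and from 108 to 28571 with a median of 12832 in the 310 members without Mrgprd. Below 2000 Calca CPM, a line set after these values had been seen, lay 44 of the 66 but 15 of the 310 (4.84%). The 66 had a median of 14485.5 UMIs and the 310 had 3649, and the median number of genes of the first list was 2 and 4.

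The 66 also carried other genes of the Mrgprd class. Grik1, a kainate receptor subunit, was seen in 89.4% of them and 5.81% of the 310, against 94.9% of the 275 neurons with 2 or more Mrgprd UMIs and under 5 of Calca. Gfra2, the receptor for neurturin, was seen in 68.2% and 2.90%, against 63.6% of the Mrgprd neurons. Piezo2, the mechanically activated channel, stood at 616 CPM in the 66, 75.5 CPM in the 310 and 932 CPM in the Mrgprd neurons.

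By these genes the 66 resembled Mrgprd neurons more than the other members, although the rule admitted them. Of all 379 neurons with 2 or more Mrgprd UMIs, 104 (27.4%) had 5 or more Calca UMIs and 54 (14.2%) were members. The median depth was 15647.5 UMIs in those 54 and 4728 in the rest. Depth and Mrgprd thus moved together with membership, and their part in the result was not tested. No doublet was called or removed. Values below are given for the 310 members without Mrgprd, a choice made after the data had been seen, with all 376 beside them where the call differs.

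Trpa1 was seen in 81.9% (77.2% to 86.1%) of the 310 members at 593 CPM (559 to 629). Per cell the lowest member had 0, the median 2 and the highest 38 Trpa1 UMIs. It was seen in 26.4% of the Cyp1b1/Kit-list neurons at 196 CPM, in 22.5% of the Mrgprd neurons at 50.8 CPM and in 13.5% of the other neurons. In 160 glia-like cells, which should lack it, the share was 0.625% at a median of 1537 UMIs.

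Mfap5 was seen in 46.5% (40.8% to 52.2%) of the 310 members at 186 CPM (167 to 206), with up to 14 UMIs in a cell. In the Cyp1b1/Kit-list neurons the share was 1.05% and the level 3.17 CPM. Glia-like cells showed it in 5% at 62.4 CPM. Mfap2, which encodes another microfibril protein, was seen in 0.645% of the members.

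Gpr83 was seen in 39.0% (33.6% to 44.7%) of the 310 members at 136 CPM (120 to 154) and likewise reached 14 UMIs in a cell. The Cyp1b1/Kit-list neurons showed it in 0.394%, the Mrgprd neurons in 0.727% and the other neurons in 2.70%. None of the 160 glia-like cells had a UMI, which allows a share of cells with a UMI of up to 1.88%, taken as 3 counts of the total.

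Lpar1 was seen in 69.4% (63.9% to 74.4%) of the 310 members at 273 CPM (250 to 297) and in 12.5% of the Cyp1b1/Kit-list neurons at 56.0 CPM. Its share in glia-like cells was 23.8% at 246 CPM. The 8 glia markers, Mbp, Apoe and Sox10 among them, together took 0.0961% of the UMIs of the 310 members, 0.0918% of those of the Cyp1b1/Kit-list neurons and 11.7% of those of glia-like cells. Single markers differed, with log2 ratios of the 310 to the Cyp1b1/Kit-list neurons of 0.28 (0.04 to 0.51) for Mbp and -1.68 (-2.74 to -0.76) for Apoe. The part of glial RNA in the Lpar1 values was not tested.

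Fgg was seen in 38.4% of the 310 members at 120 CPM, against 2.10% and 5.60 CPM in the Cyp1b1/Kit-list neurons. Fibrinogen is built from several chains, and Fga, the gene of the alpha chain, had no UMI in the 376 members, which allows by the same limit a share of up to 0.798%, while Fgb had a UMI in 1 member. Tspan15 was seen in 51.6% at 132 CPM, and Stk32a in 48.4% at 126 CPM. The Cyp1b1/Kit-list neurons stood at 49.5 CPM for Tspan15 and 37.0 CPM for Stk32a.

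The 66 members with Mrgprd shared the first list unevenly. Trpa1 was seen in 72.7% of them, Stk32a in 59.1%, Tspan15 in 50% and Fgg in 45.5%, whereas Gpr83 was seen in 9.09%, Lpar1 in 13.6% and Mfap5 in 18.2%. Per UMI all 7 genes were lower than in the 310, with Trpa1 at 109 CPM and Gpr83 at 8.07 CPM. The commonest combinations over all 376 members were Trpa1 with Tspan15 in 19 cells and Trpa1 with Stk32a in 14.

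Depth differed between the groups, so shares were also taken after each cell was thinned to 1000 UMIs. Trpa1 was then seen in 50% of the 310 members and 12.9% of the Cyp1b1/Kit-list neurons. Mfap5 was seen in 23.5% and 0.394%, Gpr83 in 14.2% and 0.131%, and Lpar1 in 28.7% and 4.46%. The cells were chosen by these genes. In cells chosen without the gene in question, the thinned shares were 46.3% and 15.4% for Trpa1, 20.1% and 0.920% for Mfap5, 13.0% and 0.263% for Gpr83, and 25.2% and 7.41% for Lpar1.

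Because these genes chose the cells, each was also read in cells chosen without it, with the rule applied to the other 6 genes and cells with Mrgprd left out. The genes had been put on the list from these same cells, so the values remain a description. Mfap5 stood at 167 CPM (149 to 188) in 284 cells so chosen and at 5.14 CPM in the Cyp1b1/Kit-list neurons, a log2 ratio of 5.03 (4.39 to 5.74). For Gpr83 the levels were 130 CPM and 4.64 CPM, a log2 ratio of 4.80, and for Fgg 108 and 8.73 CPM, a log2 ratio of 3.63.

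Trpa1, read this way, was seen in 77.2% of 246 cells against 30.4% of the Cyp1b1/Kit-list neurons, at 579 and 233 CPM and a log2 ratio of 1.31 (1.18 to 1.44). Lpar1 had a log2 ratio of 1.69, Stk32a 1.34 and Tspan15 1.17. With the cells that carry Mrgprd included, the ratios were 0.98 for Trpa1, 0.98 for Lpar1 and 0.80 for Tspan15, below the 1 used as a limit elsewhere. The genes of the second list, read in the same way, were lower in the members, from -2.79 for Cyp1b1, a cytochrome P450, and -2.77 for Ccl21a, a chemokine, to -0.41 for Aldh1a3, which makes retinoic acid.

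**Figure D2:**
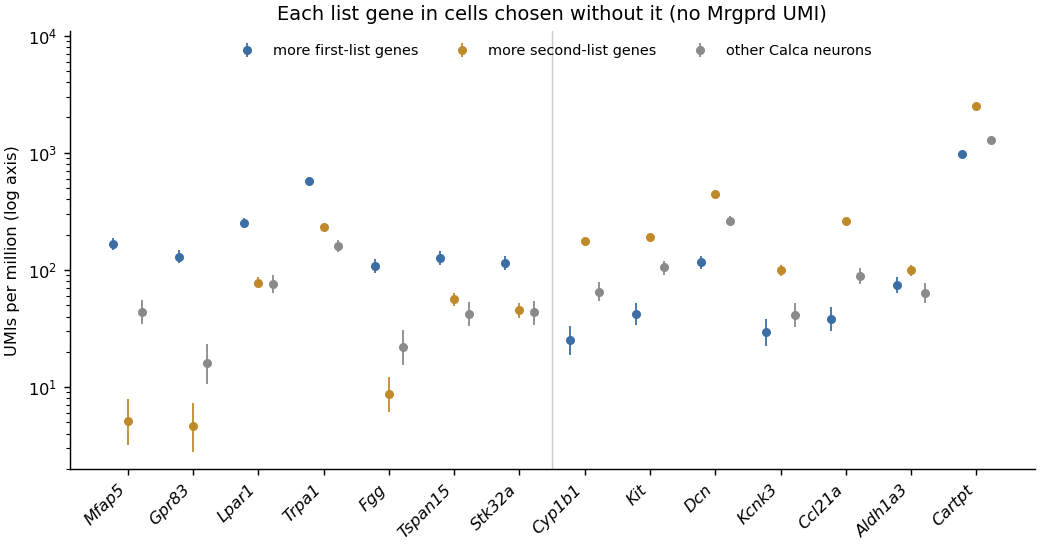
Points are CPM (log axis) of each list gene in neurons chosen with that gene left out of the rule, without Mrgprd UMIs, and bars are exact Poisson 95% intervals. The first 7 genes are highest in the blue group chosen by the first list, with Mfap5 at 167 against 5.14 CPM, and the last 7 are highest in the orange group chosen by the second list.

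The plot of genes left out of their own choice shows the remaining Calca neurons, chosen by neither rule, between the groups for Mfap5 (44.1 CPM), Gpr83 (16.1 CPM) and Fgg (22.1 CPM). Trpa1 stood at 161 CPM in these neurons, below the Cyp1b1/Kit-list neurons. For the other 3 genes the intervals of these 2 groups overlapped, with Lpar1 at 75.7 and 77.9 CPM, Stk32a at 43.4 and 45.3 CPM, and Tspan15 at 42.1 (33.1 to 52.8) and 56.3 CPM (49.4 to 63.9).

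List genes were also seen together cell by cell. Among the 1474 neurons with 5 or more Calca UMIs and no Mrgprd, the 133 with a Gpr83 UMI had 914 Trpa1 CPM and the rest 218. Mfap5 stood at 233 and 31.2 CPM and Fgg at 157 and 21.2 CPM in the same cells. The 538 neurons with a Trpa1 UMI had 81.4 Gpr83 CPM against 4.34 in the 936 without, and 221 against 36.7 Lpar1 CPM. These values do not depend on membership, but they share the depth of the cells. The genes had also been put on the list from these same cells, so their joint presence remains a description.

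Peptide genes outside the rule were compared next, first with the Cyp1b1/Kit-list neurons. A gene counted as higher or lower when its pooled CPM differed by at least 1 on the log2 scale, given at least 100 UMIs over both groups and a UMI in at least 5% of the cells of one. Of 7658 genes tested in the 310 members, 149 were higher (1.95%) and 181 were lower (2.36%). With all 376 members, 280 of 8149 were higher (3.44%) and 263 lower (3.23%). The median log2 ratio over all genes tested was 0.0094 in the 310 and -0.0016 in the 376.

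Among 7 neuropeptide and secreted factor genes tested, none was higher in the 310 and 2 were lower, with a median log2 ratio of -0.47. Calcb, which encodes beta-CGRP, stood at 1023 CPM in the 310 members and 543 in the Cyp1b1/Kit-list neurons, a log2 ratio of 0.91 just under the limit. Tac1 stood at 7964 CPM (7837 to 8092) and 5168 CPM, with a UMI in 99.0% and 94.9% of cells. In all 376 members the log2 ratio of Tac1 was 0.05.

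Gal, the precursor of galanin, was lower, at 327 against 903 CPM and a log2 ratio of -1.47 (-1.59 to -1.34). Fam19a1, which encodes a secreted chemokine-like protein, had 1 UMI in the members, a log2 ratio of -6.11 with an interval from -11.4 to -3.61. Bdnf, the neurotrophin, missed the limit in the 310 (-0.96) and passed it in all 376 (-1.21). Adcyap1, the precursor of PACAP, stood at 610 and 749 CPM.

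Of 12 genes of peptide storage and processing, 3 were lower and none was higher. Scg2, a granin of dense-core vesicles, stood at 667 against 1961 CPM (log2 ratio -1.56). Resp18, a protein of the secretory pathway, had a log2 ratio of -2.22, and Pcsk1, a proprotein convertase, -1.16. These neurons thus combined the CGRP and substance P precursors with lower Gal and Scg2 than the Cyp1b1/Kit-list neurons. Calca was required in both groups. In the 229 Calca neurons without Mrgprd that showed equally many genes of both lists, Gal stood at 330 CPM.

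The receptor and channel genes of sensory transduction held 12 tested genes outside the rule, of which 1 was higher and 3 were lower, with a median log2 ratio of 0.05. Asic1, an acid-sensing channel, was seen in 34.5% of the 310 members at 97.8 CPM and in 5.91% of the Cyp1b1/Kit-list neurons at 14.6 CPM, a log2 ratio of 2.74 (2.31 to 3.19). Asic3, which belongs to the same family, went the other way, at 88.3 against 276 CPM and a log2 ratio of -1.64. The 2 acid-sensing channels therefore had opposite directions. Over all 376 members Trpm4, a cation channel, was also higher (1.03, against 0.94 in the 310).

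Trpv1 was seen in 79.7% of the 310 members at 464 CPM and in 66.1% of the Cyp1b1/Kit-list neurons at 365 CPM, a log2 ratio of 0.35 that did not reach the limit. Piezo2 was lower, at 75.5 against 240 CPM (log2 ratio -1.67), and so was Htr3a, a serotonin-gated channel (-2.19). In all 376 members Piezo2 had a log2 ratio of 0.20, since it stood at 616 CPM in the 66 with Mrgprd. P2rx3, the ATP-gated channel, had a log2 ratio of 1.10 in all 376 and -0.37 in the 310.

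No sodium channel gene passed the limit among 11 tested in the 310, and Scn10a (317 against 337 CPM) and Scn11a (366 against 325 CPM), which carry the tetrodotoxin-resistant currents of nociceptors, were close to the Cyp1b1/Kit-list neurons. Among 8 potassium and HCN channel genes, Kcnk18, which encodes the background channel TRESK, was higher, at 39.4 against 9.50 CPM (2.05). Among 8 calcium channel genes, the auxiliary subunit Cacna2d3 was higher, at 42.0 against 6.33 CPM (2.73). Kcnk18 and Cacna2d3 were seen in 14.2% and 16.5% of the 310 members. In the 229 Calca neurons without Mrgprd that showed equally many genes of both lists, Kcnk18 stood at 50.9 CPM (38.2 to 66.6). Its higher level thus holds against the Cyp1b1/Kit-list neurons.

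**Figure D3:**
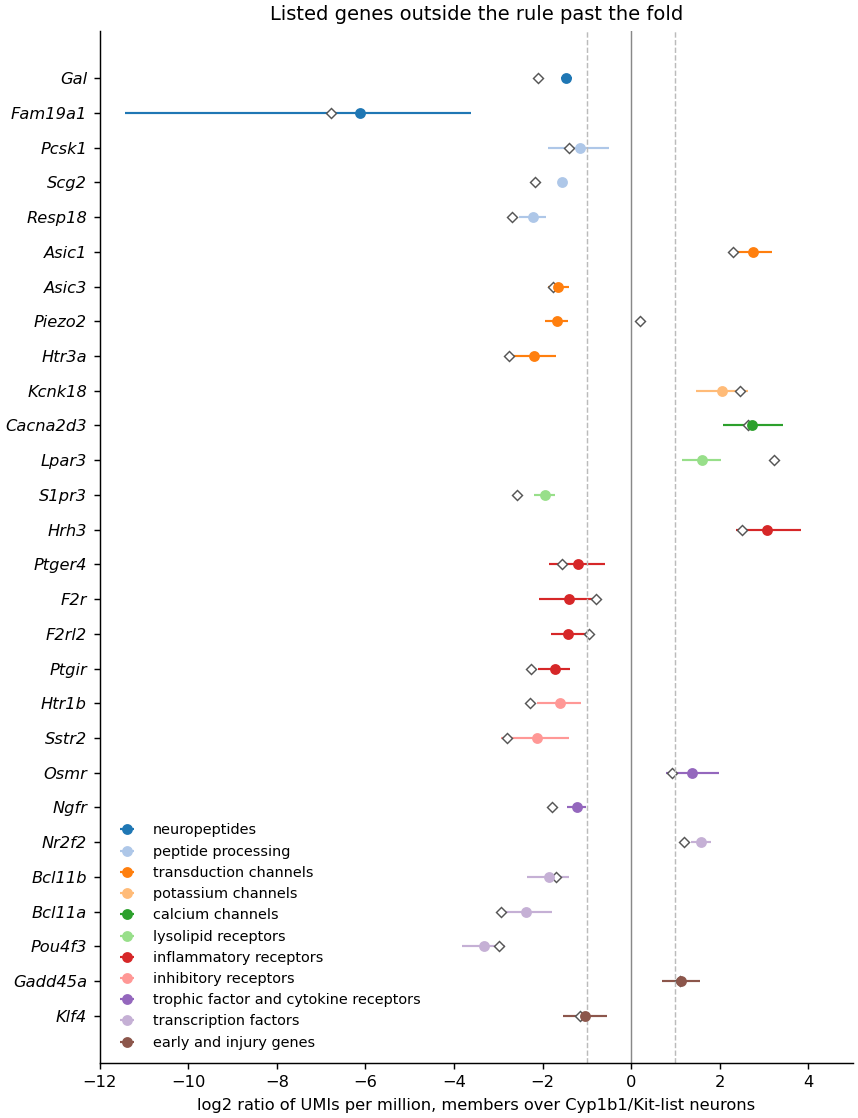
Log2 ratio of CPM, members over Cyp1b1/Kit-list neurons, for the 28 genes of the peptide, channel, receptor, transcription factor and early gene lists that took no part in the rule and passed a log2 ratio of 1 (dashed lines) in the 310 members without Mrgprd, coloured by gene list. Filled points and bars are the 310 members with exact 95% intervals of counting error, and open diamonds are all 376 members. Piezo2 turns from -1.67 to 0.20 when the members with Mrgprd are included.

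Among receptors for lipid mediators besides Lpar1, Lpar3 was higher, at 55.8 against 18.5 CPM (1.59, interval 1.15 to 2.04), and S1pr3, a receptor for sphingosine-1-phosphate, was lower, at 88.3 against 340 CPM (-1.95, interval -2.19 to -1.71). Lpar3 stood at 372 CPM in the 66 members with Mrgprd and 466 CPM in the Mrgprd neurons. Of 7 receptors for inflammatory mediators tested, 1 was higher and 4 were lower, with a median of -1.20.

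The higher one was Hrh3, a histamine receptor, seen in 18.7% of the 310 at 43.1 CPM and in 2.62% of the Cyp1b1/Kit-list neurons at 5.12 CPM (3.07, interval 2.37 to 3.84). Ptgir, the prostacyclin receptor, was lower at 40.4 against 134 CPM (-1.73), as were Ptger4, a receptor for prostaglandin E2 (-1.20), and the protease-activated receptor genes F2r (-1.41) and F2rl2 (-1.42). In all 376 members F2r (-0.78) and F2rl2 (-0.95) stayed under the limit, so that 2 of the 7 were lower there and 2 were higher, Hrh3 and Ptgdr, a prostaglandin D2 receptor (1.31, against 0.03 in the 310).

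Among 9 genes of inhibitory receptors, Htr1b, a serotonin receptor (-1.61), and Sstr2, a somatostatin receptor (-2.14), were lower and none was higher. The Cyp1b1/Kit-list neurons include cells of the class marked by Dcdc2a, and their part in the Sstr2 value was not tested. Among 10 receptors for trophic factors and cytokines, Osmr, the oncostatin M receptor, was higher (29.2 against 11.2 CPM, 1.38, and 0.93 in all 376) and Ngfr, the low-affinity neurotrophin receptor, was lower (110 against 258 CPM, -1.23). Gfra3, the co-receptor for artemin, was seen in 82.9% of the 310 at 620 CPM and in 57.7% of the Cyp1b1/Kit-list neurons at 314 CPM, a log2 ratio of 0.98 (0.86 to 1.10). Ret, the signalling receptor for the GDNF family, stood at 407 and 222 CPM. Over all 376 members 12 genes of this list were tested, with Ngfr lower and Ret (1.11), Gfra1 (2.74) and Gfra2 (4.49) higher. Gfra1 was not tested in the 310.

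Of 22 transcription factor genes, 1 was higher and 3 were lower. Over all 376 members 3 of 25 were higher and 4 lower, with Etv1 (1.92) and Casz1 (2.63) added to the higher and Prdm8 (-1.11) to the lower. Etv1 and Prdm8 were not tested in the 310, where their log2 ratios were 2.13 (1.55 to 2.73) and -1.61 (-2.62 to -0.73). Nr2f2, an orphan nuclear receptor also called COUP-TFII, was seen in 55.8% (50.1% to 61.4%) of the 310 members at 205 CPM (185 to 226). The level was 68.2 CPM in the Cyp1b1/Kit-list neurons, 17.4 in the Mrgprd neurons and 62.8 in the other neurons, and the log2 ratio to the Cyp1b1/Kit-list neurons was 1.59 (1.36 to 1.81). Thinned to 1000 UMIs, Nr2f2 was seen in 21.0% of the 310 and 6.43% of the Cyp1b1/Kit-list neurons.

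Pou4f3, a POU-domain factor, was seen in 5.16% of the 310 members at 21.3 CPM and in 43.0% of the Cyp1b1/Kit-list neurons at 212 CPM, a log2 ratio of -3.31 (-3.81 to -2.86). It was seen in 36.4% of the 66 members with Mrgprd, which had a median of 14485.5 UMIs against 3238 in the Cyp1b1/Kit-list neurons. Over all members, those with Mrgprd included, Pou4f3 stood at 26.7 CPM, a log2 ratio of -2.99 to the Cyp1b1/Kit-list neurons. The part of depth in the share was not tested. In the 310 the zinc-finger factor Bcl11a was lower with a log2 ratio of -2.37 and Bcl11b with -1.86. Genes of early response and injury held 11 tested members, with Gadd45a higher (1.13) and Klf4 lower (-1.03), and Atf3, a marker of axon injury, at 278 CPM in the 310 and a log2 ratio of -0.11. None of 6 matrix genes outside the rule passed the limit.

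Genes outside the rule, listed or not, were also named by size, among genes with a UMI in at least 20% of the higher group. The 12 largest log2 ratios in the 310 members were those of Cdk15 (2.98), Asic1 (2.74), Ifi27l2a (2.72), Dpp10 (2.60), Ntm (2.49), Cpne5 (2.45), Tmem233 (2.43), Slc6a19 (2.39), Rhoj (2.38), Gabra3 (2.35), Racgap1 (2.34) and Gna14 (2.33). Tmem233 stood at 480 against 88.9 CPM, Gna14, a G protein alpha subunit, at 158 against 31.4 CPM, and Gabra3, a subunit of the GABA-A receptor, at 105 against 20.7 CPM. Of these, Cdk15 (78.8%), Tmem233 (98.5%), Gna14 (92.4%), Dpp10 (63.6%) and Cpne5 (57.6%) were seen in most of the 66 members with Mrgprd as well, while Gabra3 and Rhoj were seen in 6.06% of them.

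The 12 lowest were Dcdc2a (-5.44), Pou4f3 (-3.31), the transporter gene Abcg2 (-2.63), D430036J16Rik (-2.50), the growth factor receptor gene Fgfr1 (-2.43), Bcl11a (-2.37), Ccdc141 (-2.35), Resp18 (-2.22), Trappc3l (-2.19), Gsta4 (-2.18), Htra1 (-2.09) and Mfap3l (-2.07). Dcdc2a marks the separate class that the mirrored rule admits, and stood at 2.13 against 92.6 CPM. In the paper's list of heatmap genes, Trappc3l, Resp18, Sstr2 and Gsta4 stand close to Dcdc2a. The part of that class in the lower values of these and other genes was not tested.

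With all 376 members the largest ratios were instead those of Kcnip2 (4.11), Acpp (3.72), Cdk15 (3.71), Tmem233 (3.63), Klhl5 (3.51), Ctxn3 (3.48), Synpr (3.46), Car10 (3.28), Grik1 (3.25), Lpar3 (3.23), Dpp10 (3.12) and Ly86 (3.08). Kcnip2, which modulates potassium channels, was seen in 80.3% of the 66 members with Mrgprd and 8.06% of the 310, and Acpp, the acid phosphatase of non-peptidergic neurons, in 90.9% and 17.1%. Of these 12, 3 were also among the 12 largest ratios of the 310. Listed genes that passed the limit in all 376 members but not in the 310 included Gfra2 (4.49 against 0.21), Casz1 (2.63 against 0.77), Cacnb4, a calcium channel subunit (1.06 against 0.71), Kcnt1, a potassium channel (1.61 against 0.57), Scg3, a granin (1.39 against 0.46), Scn4b, a sodium channel beta subunit (1.22 against 0.23), and, on the lower side, Nfkbia (-1.02 against -0.78) and S100b (-1.27 against -0.87).

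Against the 3479 other neurons, 232 of 9438 genes tested were higher in the 310 members (2.46%) and 388 were lower (4.11%). With all 376 members, 144 of 9826 were higher (1.47%) and 313 lower (3.19%). Among the largest ratios in the 310 were those of Rhoj, a small GTPase (3.38), Chrnb3, a nicotinic receptor subunit (3.21), Ifi27l2a (2.67), Gfra3 (2.40), Syndig1l (2.38), Gpx3, a secreted glutathione peroxidase (2.09), Rasd1 (1.94), Tac1 (1.91), Amigo2 (1.88), Slc46a1 (1.81) and Ptger1, a receptor for prostaglandin E2 (1.79). Chrnb3 stood at 99.4 against 10.8 CPM.

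Some of these genes were shared with the Cyp1b1/Kit-list neurons, which belong to the other neurons here. Gpx3 stood at 987 CPM in the 310 members and 720 CPM in the Cyp1b1/Kit-list neurons, and Ptger1 at 63.8 and 46.0 CPM. Chrnb3, at 26.3 CPM in the Cyp1b1/Kit-list neurons, had a log2 ratio of 1.92 (1.57 to 2.27) to them, and Rhoj 2.38.

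Trpv1 (1.71), Calcb (1.44), Adcyap1 (1.28) and Asic1 (1.60) were higher than in the other neurons. So were 4 of 30 transcription factor genes, Nr2f2 (1.70), Zeb2 (1.21), Zbtb20 (1.21) and Insm2 (1.34), while Pou4f2, Pou4f3, Maf, Casz1, Ebf3 and Onecut2 were lower. In all 376 members Adcyap1 (0.64), Zeb2 (0.61) and Zbtb20 (0.74) were under the limit, as were Casz1 (0.10), Ebf3 (-0.18) and Onecut2 (-0.80), while Bcl11a was lower there (-1.43). Of the inhibitory receptors, the opioid receptor gene Oprm1 (1.22) and the neuropeptide Y receptor gene Npy2r (1.03) were higher, seen in 6.77% and 9.35% of the 310, and Htr1d, a serotonin receptor, was lower (-1.41). In all 376 Oprm1 (0.61) and Npy2r (0.40) did not pass, while Htr1d (-1.94) and Htr1b (-1.03) were lower.

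Genes of large, myelinated neurons were lower, 7 of 10 tested, with a median of -1.42. Nefh, the neurofilament heavy chain, stood at 450 against 1200 CPM, Kcna1, a potassium channel, at 26.0 against 164 CPM and Scn1a, a sodium channel, at 28.2 against 102 CPM. Among the lowest of all were Grik1 (-3.80), Gm7271 (-3.17), Piezo2 (-3.09), Cdh11 (-3.09), Osbpl1a (-2.91), Ppp1r1a (-2.72), Kcna1 (-2.65), Tmem45b (-2.57), Kcnip4 (-2.39) and Fabp3 (-2.29). The other neurons still held 460 cells with a Mrgprd UMI, whereas the 310 held none. With such cells left out of both groups, 3019 other neurons remained, and the log2 ratios were -2.70 for Grik1, -1.49 for Tmem45b, -1.79 for Kcnip4, -2.51 for Cdh11, -2.21 for Ppp1r1a and -3.01 for Piezo2. Mbp, which encodes myelin basic protein, was lower than in the other neurons as well, and glia markers took 0.277% of the UMIs there, against 0.0961% in the 310. The part of glial RNA in the other lower genes was not tested.

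In all 376 members the largest ratios included those of Chrnb3 (2.82), Rhoj (2.76), Ifi27l2a (2.36), Serping1 (1.95), Syndig1l (1.87), Gfra3 (1.85) and Gna14 (1.76). Grik1 had a log2 ratio of 0.34 there and Piezo2 of -1.22. Cdh11 (-0.11), Ppp1r1a (0.12), Tmem45b (0.44) and Kcnip4 (0.19) were likewise not past the limit in all 376, whereas Gm7271 (-2.57), Osbpl1a (-2.25) and Fabp3 (-2.40) were. Fibroblast markers took 0.000367% of the UMIs of the 376 and vascular markers 0.00541%, with Cldn5 and Kdr at 0. Blood markers took 0.373%, against 0.655% in the Cyp1b1/Kit-list neurons, and pituitary markers 0.0548% against 0.0649%. In the 310 the pituitary share was 0.0707%. Blood markers took over 1% of the UMIs in 10.4% of the 376 members, with a highest share of 7.91%, and the highest pituitary share in a member was 16.6%. The part of this RNA in the results was not tested.

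The 1474 neurons with 5 or more Calca UMIs and no Mrgprd were then ordered by the number of genes of the first list seen minus that of the second. Nr2f2 stood at 53.2 CPM (44.5 to 63.1) in the 387 neurons at -3 or less, 56.9 at -2, 105 (86.5 to 127) at -1, 77.8 (61.8 to 96.8) in the 229 at 0, 150 at 1, 155 in the 97 at 2, 182 in the 76 at 3 and 347 (293 to 409) in the 72 at 4 or more. Gfra3 went from 267 CPM (247 to 288) to 294 at 0 and 736 (656 to 823) at 4 or more. Both were highest at the end where most genes of the first list were seen.

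S1pr3 went from 387 CPM (363 to 412) at -3 or less to 144 at 0 and 83.9 (58.4 to 117) at 4 or more, and Gal from 1028 to 330 and 285 CPM. Pou4f3 went from 276 CPM to 59.6 at 0, 66.2 at 1 and 5.82 at 2, and had no UMI at 4 or more, where the interval reached 8.84 CPM. The levels of S1pr3 and Gal thus differed mostly between -3 and 0, and that of Pou4f3 again between 1 and 2.

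Calca stood at 11642 CPM at -3 or less, 8648 at 0, 8414 at 1 and 11724 at 4 or more, so neurons in the middle had less of it than those at either end. Tac1, too, was lowest at 0, with 4267 CPM against 4756 and 9937 at the ends. Neurons in the middle were also shallower than those at the ends, with a median of 2472 UMIs at 0 against 4161 and 4125, and the part of depth in their place was not tested.

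**Figure D4:**
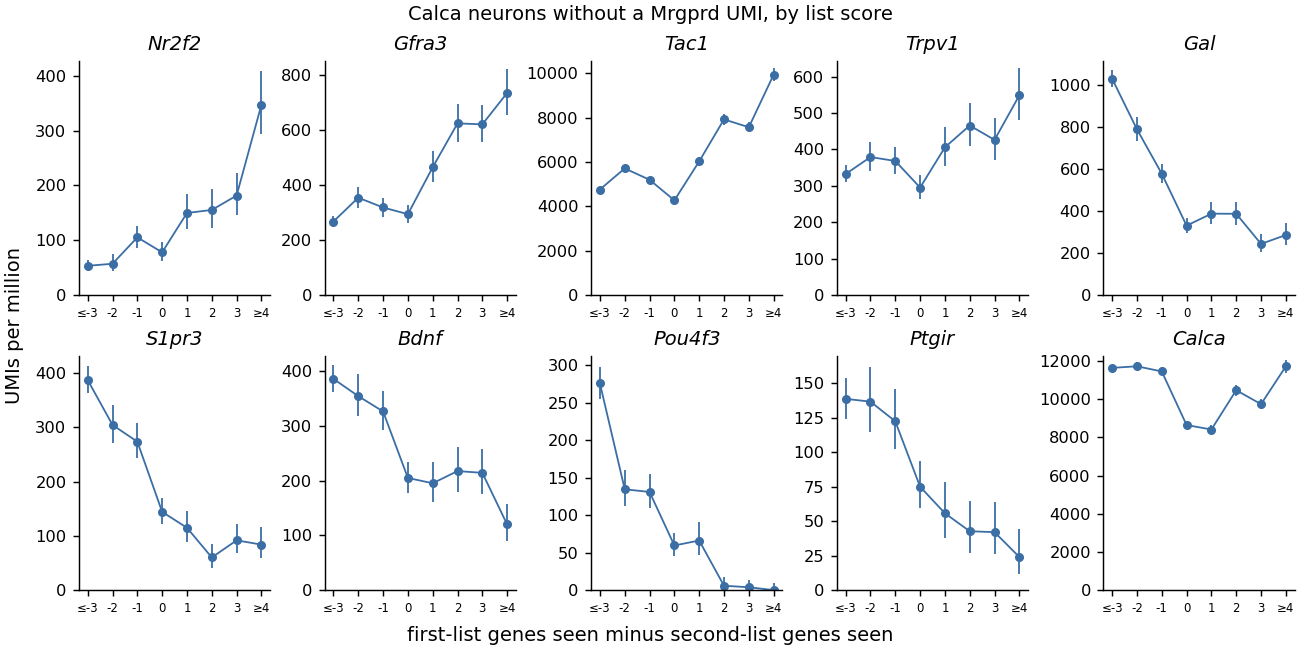
CPM of 10 genes of neither list in neurons with 5 or more Calca UMIs and no Mrgprd UMI, in bins of the number of first-list genes seen minus second-list genes seen. Bars are exact Poisson 95% intervals. Nr2f2 goes from 53.2 to 347 CPM and Pou4f3 from 276 to 0 CPM, while Calca is lowest in the middle bins.

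The members themselves were not uniform. For this comparison the 15 members below 2000 Calca CPM were left out besides those with Mrgprd, since they were deep (median 14813 UMIs) and held 15.5% of the UMIs of the 310. In the 295 that stayed, the log2 ratios to the Cyp1b1/Kit-list neurons were 1.66 for Nr2f2, 2.73 for Asic1 and 3.26 for Hrh3. Pou4f3 went from -3.31 in the 310 to -4.39, Thy1 from -1.39 to -2.04 and Htra1 from -2.09 to -2.76. Against the other neurons Gm7271 went from -3.17 to -4.31, Cdh11 from -3.09 to -4.08, Kcna1 from -2.65 to -3.38 and Fabp3 from -2.29 to -2.94. Gfra3 (1.10) and Calcb (1.09) passed the limit in them. Cells were left out of the members only. The Cyp1b1/Kit-list neurons kept 14 cells below 2000 Calca CPM and 7 with Mrgprd, and the part of this in the ratios was not tested.

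Of the 295 cells, 187 had a UMI of Mfap5 or Gpr83 and 108 had neither, with median depths of 3595 and 3455 UMIs. The cells with either gene had more Trpa1 (833 against 442 CPM), Tac1 (10362 against 5947 CPM), Gpx3 (1437 against 649 CPM), Gfra3 (804 against 444 CPM) and Gal (409 against 200 CPM). Trpa1 belongs to the rule, so its values here were partly set by the choice of cells. Nr2f2 stood at 279 against 104 CPM, a log2 ratio of 1.42 (1.02 to 1.84). Calca itself differed little, at 12475 and 10994 CPM. Gh, the growth hormone gene of the pituitary, stood at 248 against 1372 CPM (-2.47) and was seen in 44.9% and 44.4% of these cells. Its part in the other values of the split was not tested.

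Larger ratios were those of Ntm, a cell adhesion protein (90.5 against 10.3 CPM, 3.14), Cald1, which encodes caldesmon (142 against 17.1 CPM, 3.05), and Gpr26, an orphan receptor (56.7 against 8.56 CPM, 2.73). Hrh3 was seen in 25.7% of the cells with Mfap5 or Gpr83 and 7.41% of those without (1.68, interval 0.78 to 2.70). Phlda1 stood at 174 against 51.4 CPM.

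The cells with neither gene carried more of another set. Pde1c, a phosphodiesterase, stood at 123 CPM in them against 5.97 in the rest (-4.37, interval -5.86 to -3.18), Resp18 at 127 against 9.94 (-3.67), Acpp at 226 against 27.8 (-3.02) and Piezo2 at 140 against 24.9 (-2.50). Kcnk18 was seen in 20.4% of them and 10.2% of the rest (82.2 against 18.9 CPM). Scn10a stood at 601 against 220 CPM and Cd55, a complement regulator, at 337 against 111 CPM. Mrgpra3 was seen in 4.63% of them at 139 CPM and had no UMI in the rest. Nrp1 stood at 125 against 32.8 CPM, and Etv1 at 125 against 1.99 CPM, with a UMI in 11.1% and 1.07%.

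**Figure D5:**
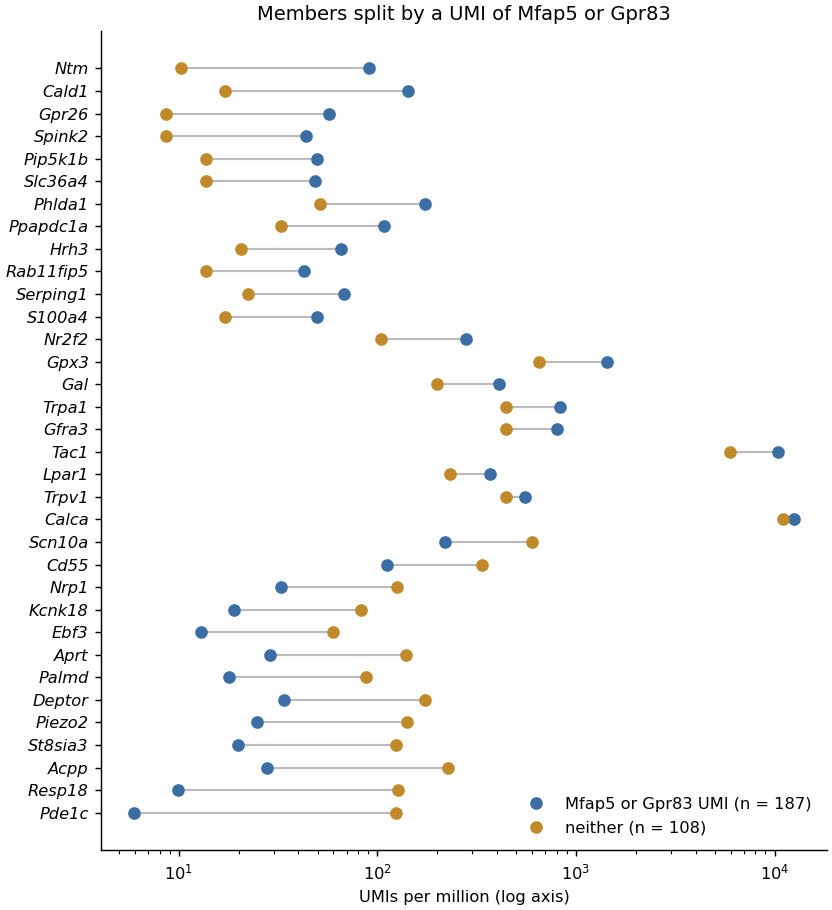
CPM (log axis) in the 187 members with a UMI of Mfap5 or Gpr83 and the 108 with neither, among members without Mrgprd and with at least 2000 Calca CPM. Genes are ordered from the largest log2 ratio (Ntm, 3.14) to the lowest (Pde1c, -4.37), and the line joins the values of 1 gene.

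The plot of this split sets Trpa1, Lpar1, Tac1, Trpv1 and Calca near the middle of the order, which holds among the plotted genes only. Cells with neither gene had to show at least 2 of the remaining genes of the first list. Their Trpa1 and Lpar1 values were therefore conditioned by the choice of cells. Trpv1 stood at 552 and 444 CPM. Acpp, Piezo2 and Scn10a, higher in the cells with neither gene, were also high in the Mrgprd neurons, with Piezo2 at 932 CPM and Scn10a at 1156 CPM, although no cell of this split had a Mrgprd UMI. The split used 2 genes of the rule, and whether the cells without their UMIs lack these transcripts was not tested.

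In all 310 members without Mrgprd, the same split gave 196 and 114 cells, and of 4880 genes with at least 50 UMIs 62 were higher with Mfap5 or Gpr83 (1.27%) and 85 lower (1.74%). Gal stood at 405 against 196 CPM, Gpx3 at 1239 against 564 CPM, Nr2f2 at 259 against 114 CPM and Trpa1 at 724 against 375 CPM. Ratios that lay at the ends of the order were smaller here, with Ntm at 116 against 34.1 CPM (1.76), Cald1 at 160 against 49.8 (1.68), Gpr26 at 78.2 against 17.1 (2.20), Pde1c at 10.2 against 108 (-3.41), Resp18 at 17.8 against 108 (-2.60) and Piezo2 at -2.41. The 15 cells below 2000 Calca CPM, a line set after the values had been seen, thus moved the fold differences of Ntm, Cald1, Pde1c and Resp18 by over 1.5 times, while Acpp stood at -3.07. Gh stood at 317 and 1217 CPM and was seen in 46.9% and 47.4% of these cells.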

How the data were processed

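The authors deposited 1 table of UMI counts, unnormalized, from Drop-seq of dissociated trigeminal ganglia enriched for neurons on Percoll and by depletion of glia, keeping barcodes with at least 1000 transcripts. The submitters' processing notes name bcl2fastq 2.17, STAR 2.5.3a, Seurat 1.4.0.16 and mm10. From these counts, cells were chosen by the rule above and levels and intervals computed with Python 3.11.15, numpy 2.4.6, scipy 1.17.1 and pandas 2.3.3. The steps were tested on simulated data. Members, gene lists and tests were chosen with earlier results of these data known. Named genes were the listed genes and the 12 largest log2 ratios in each direction among genes outside the rule with a UMI in at least 20% of the higher group. Some genes that this rule names are not reported here. Other genes named beside a split were chosen after their values were seen. Glia-like cells had a UMI of 4 or more of 8 glia markers and at most 1 of the 6 neuron genes. Comparisons have no replicates, since cells of the 9 samples cannot be told apart, and no doublet caller was run. Gene positions are from GENCODE on GRCm38, the assembly of mm10.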

Additional observations from a re-analysis of the deposited data

How the results depend on the processing

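No paired analysis was possible because the barcodes carried no sample or replicate number, and leaving out each sample in turn could not be run for the same reason. Values are for all 376 members unless stated. The number of members was 399 at 3 or more Calca UMIs, 343 at 10 or more, 275 with 3 or more list genes, 293 with a lead of 2 genes, 376 with at most 5% mitochondrial UMIs, 362 at 900 or more genes and 373 without repeated barcodes. Without cells that had a UMI of either of 2 of the glia markers it was 243, and within 2000 to 10000 UMIs it was 212.
Against the Cyp1b1/Kit-list neurons, 280 genes were higher and 263 lower, 22 and 24 of them listed genes. Without the cells with these glia marker UMIs these were 176 higher and 165 lower genes, with 14 listed genes higher. Within 2000 to 10000 UMIs they were 103 and 118, with 6 listed genes higher. At 20 UMIs and no share limit, 638 were higher and 662 lower. Leaving out members with Mrgprd gave 149 higher genes, 8 of them listed, and turned Grik1 to -0.90 and P2rx3 to -0.37. Leaving out those below 2000 Calca CPM as well gave 135 higher genes, 11 of them listed, and turned Gfra2 to -0.13, Grik1 to -0.93, P2rx3 to -0.19 and Scn4b to -0.60. Leaving out cells with Mrgprd from both groups gave 151 higher genes, 8 of them listed, with Grik1 at -0.25 and P2rx3 at -0.30. These 3 alternatives, and that on repeated barcodes, were chosen after seeing the data.
Against the other neurons, 144 genes were higher, 14 of them listed, and 313 lower. Without the cells with these glia marker UMIs 85 were higher, 6 of them listed, and at 20 UMIs and no share limit 346 were higher and 1540 lower. Without members with Mrgprd 232 were higher and Lpar3 turned to -0.34, and with Mrgprd left out of both groups 222 were higher, 22 of them listed. Without those below 2000 Calca CPM as well, 281 were higher, 25 of them listed, and 470 lower, with Lpar3 at -0.21. Mrgprd itself turned to -1.23 within 2000 to 10000 UMIs and to -0.27 as a mean of per-cell CPM. Apart from these, no named gene past the limit changed direction under the alternatives run. Many named genes moved without turning. Within 2000 to 10000 UMIs this held for 41 of 74 against the Cyp1b1/Kit-list neurons and 60 of 84 against the other neurons, as a mean of per-cell CPM for 37 of 74 and 39 of 84, and without Mrgprd for 42 of 73 and 57 of 83.
For list genes read in cells chosen without them, the log2 ratios within 2000 to 10000 UMIs were 5.65 for Mfap5, 5.76 for Gpr83, 1.58 for Lpar1, 1.38 for Trpa1, 3.96 for Fgg and 1.25 for Tspan15. Without cells carrying Mrgprd, Lpar1 was at 1.69, Trpa1 at 1.31 and Tspan15 at 1.17. The cause of these shifts was not tested.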

Other observations

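The 310 members without Mrgprd were also divided by a UMI of Trpv1, which took no part in the rule. The 247 cells with Trpv1 (median 4451 UMIs) had more Calca (10975 against 6082 CPM), Tac1 (8606 against 4498 CPM), Gfra3 (670 against 350.2 CPM) and Gal (357 against 163 CPM) than the 63 without (median 2182 UMIs). Trpa1 stood at 634 and 374 CPM and Nr2f2 at 211 and 170 CPM (log2 ratio 0.31, interval -0.12 to 0.77). In the cells without a Trpv1 UMI, Nefh stood at 897 against 368 CPM, S100b at 374 against 115 CPM and Scn4b, a sodium channel beta subunit, at 126 against 18.9 CPM. By share of cells the order turned for Nefh, seen in 44.4% without and 64.0% with Trpv1, and for S100b, in 20.6% and 25.9%, so their pooled levels rest on part of the cells. Scn4b was seen in 20.6% and 6.07%. Gh, a pituitary marker, stood at 1673 CPM in the cells without Trpv1 and 465 CPM in those with it. The cells without Trpv1 were also shallower, and the part of depth and of pituitary RNA in these values was not tested.

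The same members were divided by a UMI of Trpa1, a gene of the rule. The 254 cells with Trpa1 and the 56 without had similar median depths, 3794.5 and 3467 UMIs. Gpx3 stood at 1119 against 437 CPM, Calcb at 1132 against 567 CPM and Npy1r, a receptor for neuropeptide Y, at 71.2 against 8.25 CPM. Piezo2 went the other way, at 38.9 CPM with Trpa1 and 228 CPM without (log2 ratio -2.55, interval -3.06 to -2.05), and Resp18 stood at 31.0 and 137 CPM. Gh stood at 440 CPM with Trpa1 and 1543 CPM without, and its part in these values was not tested. Trpm8, the cold-activated channel, was seen in 12 of the 376 members.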
